A study of Mus musculus with 6 samples.

Results

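Malat1, Neat1, Miat, Snhg11, Gas5, Pantr1, Rmst, Dlx6os1 and Sox2ot are 9 long noncoding RNAs (lncRNAs) studied in brain. They were taken from the table by gene symbol, from a list drawn up with earlier results of these data known, and are 9 of the 45777 gene rows of the count table. RNA came from the striatum of ICR mice, an outbred strain, at 6 weeks of age. These were the F1 offspring of methylphenidate sires (15 mg/kg) and of saline sires (10 mL/kg), 3 animals each. The sires were males aged 6 weeks at the start, were injected under the skin daily for 21 days and were mated with females given no drug. Methylphenidate blocks the dopamine and noradrenaline transporters. Each group holds females and a male, but the columns of the table could not be tied to single animals, so sex was not fitted. The labels do not say how many sires or litters stand behind the animals, so the p-values here cover the spread among these libraries only, and littermates may be among them. Libraries are called here by the numbers in the column names, 2, 4 and 6 for methylphenidate-sired offspring and 3, 4 and 5 for saline-sired offspring.

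A lncRNA is a transcript longer than a short RNA that is not known to be translated. Malat1 and Neat1 stay in the nucleus, where Malat1 gathers in nuclear speckles, stores of splicing factors, and Neat1 is the scaffold of paraspeckles. Miat, also called Gomafu, is a nuclear RNA of neurons that binds splicing factors, and Snhg11 and Gas5 are hosts of small nucleolar RNAs (snoRNAs), which are cut out of their introns. Pantr1, Dlx6os1 and Sox2ot lie beside or around genes of developmental transcription factors, Pou3f3, Dlx5 and Dlx6, and Sox2, and Rmst is known for binding SOX2 protein in human neural cells.

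The deposited biotype was lncRNA for 8 of the 9 rows. Snhg11 was listed as protein_coding, as it is in the GENCODE vM21 annotation, whereas the RefSeq table of build GRCm38.p6 calls it a lncRNA. Total counts per library ran between 31360042 and 38844724. The 9 RNAs together took 0.263%, 0.187% and 0.240% of the counts in methylphenidate-sired libraries 2, 4 and 6, against 0.216%, 0.247% and 0.298% in saline-sired libraries 3, 4 and 5. On the first principal component, which held 28.3% of the variance, 2 libraries lay away from the other 4, saline-sired 3 and saline-sired 4. The sums of choroid plexus markers were 263, 370 and 363 CPM (counts scaled to the library's total) in methylphenidate-sired libraries, against 3155, 901 and 223 CPM in saline-sired libraries 3, 4 and 5. A single marker, Enpp2, made up most of each sum except that of saline-sired library 3. Enpp2 had 223, 278 and 303 CPM in methylphenidate-sired libraries, against 1003, 516 and 189 CPM in saline-sired libraries 3, 4 and 5. The striatal markers Drd1, a dopamine receptor, and Ppp1r1b, its downstream phosphatase inhibitor, were abundant in all 6 libraries (209 to 287 CPM and 1376 to 1898 CPM). In such bulk samples, fewer cells of a type and less RNA per cell cannot be told apart.

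None of the 9 RNAs passed the test between the groups. In edgeR's quasi-likelihood test with Benjamini-Hochberg adjustment over 17874 tested genes, 0 of 9 were past an adjusted p of 0.05, where 4 genes of the whole table were, or 0.0224%. At an unadjusted p under 0.05 there were 2 of 9, Neat1 lower and Miat higher in methylphenidate-sired offspring, against 9.02% of all tested genes. For 0 of 9 did the 3 libraries of a group lie wholly above or below the 3 of the other, against 14.8% of all tested genes. DESeq2 called 0 of the 8 to which it gave an adjusted p, all but Rmst, against 183 of 12838 such genes over the whole table. It had 1 of 9, Miat, at an unadjusted p under 0.05, against 1608 of 26960 genes fitted. With limma-voom 0 of 9 were called, against 4 of 17874 genes. Neat1 and Miat were under an unadjusted p of 0.05 there, against 1650 of the 17874.

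**Figure D1:**
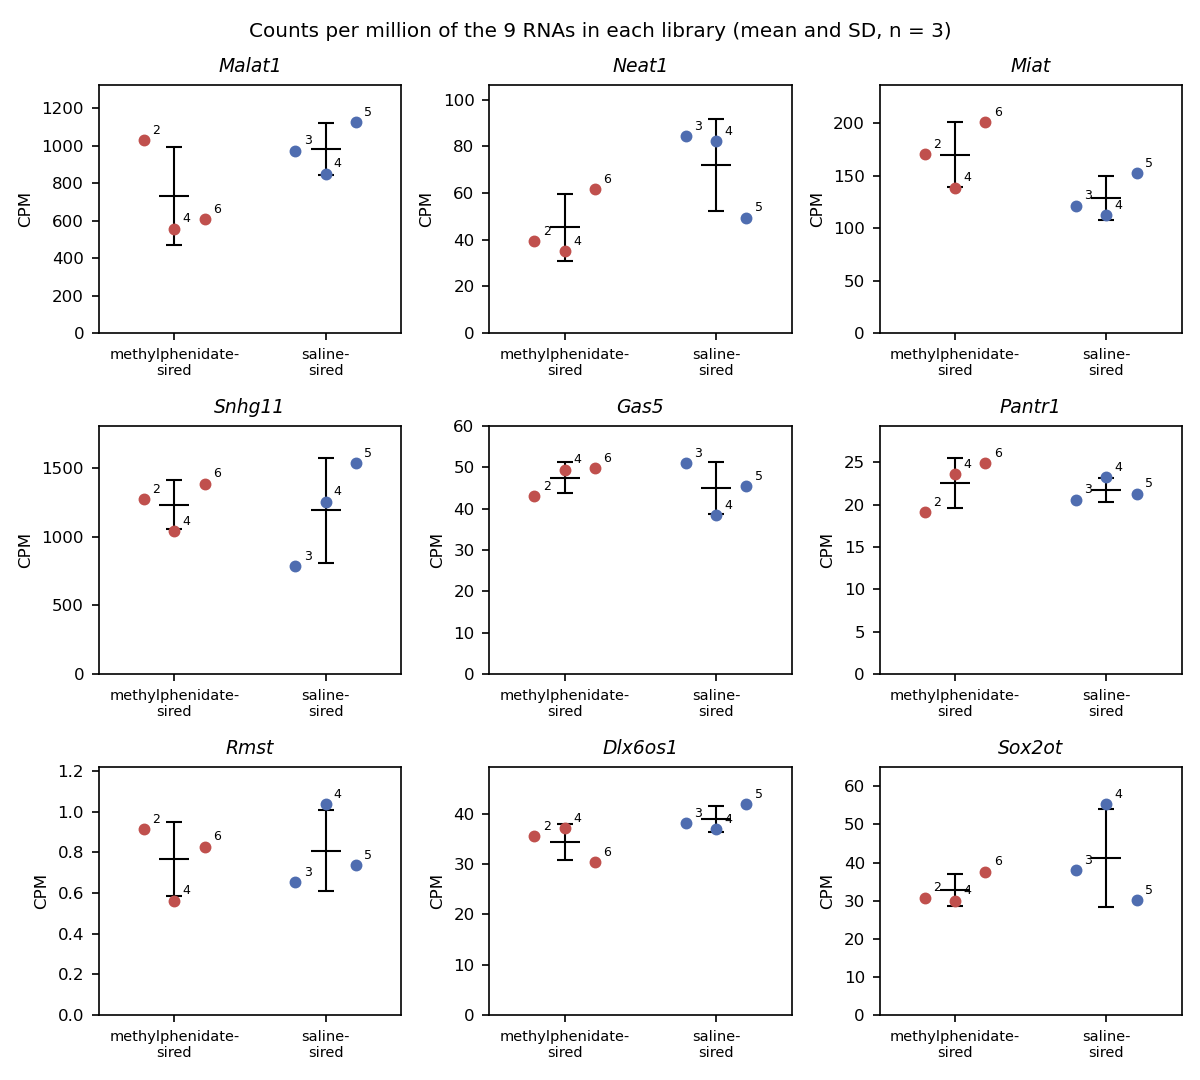
Level of each RNA in CPM (vertical axes, from 0) in each library (points, with the library number), methylphenidate-sired left and saline-sired right; the bar and whiskers are the mean and SD of 3 libraries. The groups overlap for all 9 RNAs; Neat1 in saline-sired libraries 3 and 4 (84.5 and 82.4 CPM) and Malat1 in methylphenidate-sired libraries 4 and 6 (556 and 607 CPM) are apart from the rest.

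Set by length, the RNAs covered a wide range of levels. Lengths were those of the longest GENCODE transcript of each gene that is not a retained-intron or decay form. Snhg11 had the highest level, 210 ± 30.3 CPM per kilobase in methylphenidate-sired and 203 ± 64.8 in saline-sired offspring (SD, n = 3 each). Malat1 came next with 105 ± 37.2 CPM per kilobase in methylphenidate-sired and 141 ± 19.6 in saline-sired offspring, and overlapped with Snhg11 within the saline-sired group. Gas5 had 71.4 ± 5.7 CPM per kilobase in methylphenidate-sired and 67.5 ± 9.5 in saline-sired offspring, below every Malat1 value of the same group. Miat had 18.6 ± 3.4 CPM per kilobase in methylphenidate-sired and 14.1 ± 2.3 in saline-sired offspring. Pantr1, Sox2ot and Dlx6os1 followed, with library values between 6.61 and 15.9 CPM per kilobase that overlapped from each RNA to the next. Neat1 had 2.18 ± 0.69 CPM per kilobase in methylphenidate-sired and 3.47 ± 0.95 in saline-sired offspring over its long form of 20771 bases. Neat1 also has a short form with the same start, 3004 bases long, and gene counts do not tell the forms apart. Were all Neat1 counts from the short form, its level would be 13.1, 11.7 and 20.5 CPM per kilobase in methylphenidate-sired libraries 2, 4 and 6, against 28.1, 27.4 and 16.5 in saline-sired libraries 3, 4 and 5, which would place it near or above Miat. Rmst was lowest, with means of 0.266 CPM per kilobase in methylphenidate-sired and 0.280 in saline-sired offspring.

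**Figure D2:**
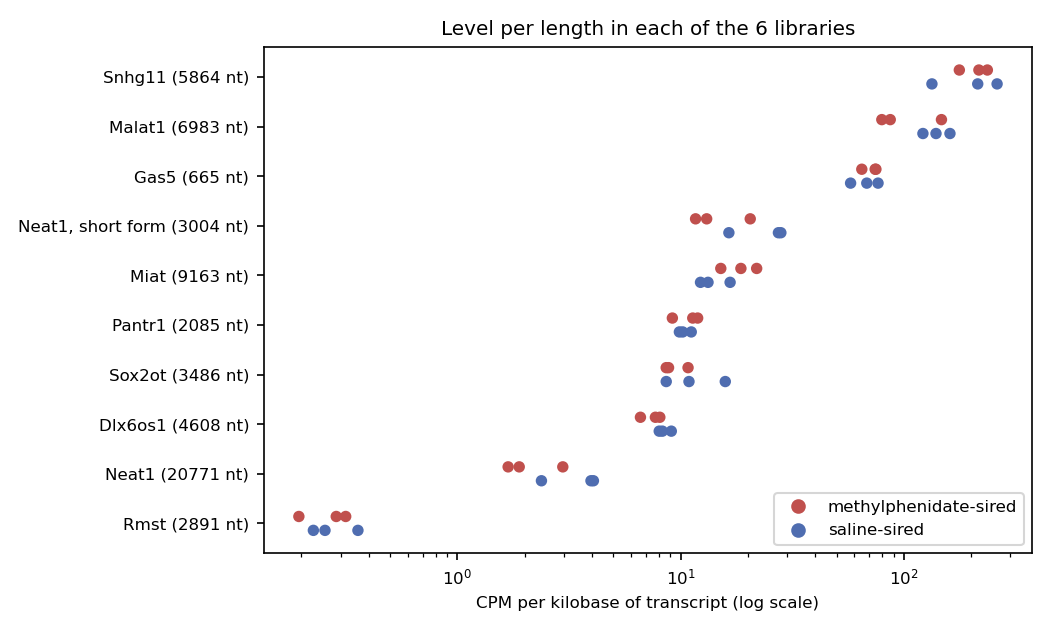
Level of each RNA in CPM per kilobase of transcript (horizontal log axis) in each of the 6 libraries, methylphenidate-sired (red, upper of each pair) and saline-sired (blue, lower). Snhg11, Malat1 and Gas5 lie above 50, Rmst below 1, and Neat1 is drawn over its long and over its short form.

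Malat1 (gene ID 72289) is a transcript of a single exon on the minus strand of chr19:5795690-5802672 (GRCm38.p6, the mm10 build). Its 3′ end is not polyadenylated in the usual way. RNase P cuts it upstream of a small tRNA-like RNA called mascRNA, and U-rich tracts of the new end fold onto an A-rich tract into a triple helix that shields the RNA from decay. The 120 bases before mascRNA are shown because they hold that end, and because poly(A) capture can take up Malat1 through such genome-coded A tracts; the sources used here do not state how RNA was selected. They are positions 6572 to 6691 of the Malat1 transcript of 6983 bases in GENCODE, at chr19:5795982-5796101 on the minus strand, with runs of 5 or more T or A in capitals.
Malat1 3′ end: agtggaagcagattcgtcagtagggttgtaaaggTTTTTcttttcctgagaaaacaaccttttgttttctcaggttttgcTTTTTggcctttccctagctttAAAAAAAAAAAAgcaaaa
The stretch holds 2 runs of 5 T and a run of 12 A. The mascRNA row itself had a count of 1 in every library, and no difference is read from it.

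Malat1 had 1029, 556 and 607 CPM in methylphenidate-sired libraries 2, 4 and 6, against 973, 850 and 1124 CPM in saline-sired libraries 3, 4 and 5. Libraries 4 and 6 of the methylphenidate-sired group were the lowest of all 6, while library 2 of that group was higher than 2 of the 3 saline-sired libraries. The means were 731 ± 260 CPM in methylphenidate-sired and 982 ± 137 CPM in saline-sired offspring (SD, n = 3 each). On the log2 scale the difference was -0.43 (SE 0.22, 95% interval -0.93 to 0.08, edgeR adjusted p = 0.606). Leaving out library 2 of the methylphenidate-sired group made it -0.74, and leaving out library 4 of that group made it -0.25. For an RNA this abundant the spread was wide. The SD of its log2 CPM within groups was 0.368, where the 222 tested genes with an average log2 CPM of 9 or more had a median of 0.0892, and only 5 of those 222, Malat1 included, had an SD as high as Malat1's. Snhg11, with 0.383, was another of these 5.

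Neat1 (gene ID 66961) lies 22035 bases from Malat1, on the same strand, at chr19:5824708-5845480. It had 39.3, 35.1 and 61.6 CPM in methylphenidate-sired libraries 2, 4 and 6, against 84.5, 82.4 and 49.4 CPM in saline-sired libraries 3, 4 and 5. Saline-sired libraries 3 and 4 were the highest 2, and saline-sired library 5 lay below methylphenidate-sired library 6. The mean level was 45.3 ± 14.3 CPM in methylphenidate-sired and 72.1 ± 19.7 CPM in saline-sired offspring (SD, n = 3 each). The log2 fold change, the largest of the 9 in size, was -0.67 (SE 0.25, 95% interval -1.24 to -0.10), with an unadjusted p of 0.0272 and an edgeR adjusted p of 0.491. Saline-sired libraries 3 and 4, highest for Neat1, were also highest for choroid plexus markers, with sums of 3155 and 901 CPM against at most 370 CPM in any other library. Without those 2 libraries, the log2 fold change of Neat1 was -0.125. That fit held 3 methylphenidate-sired libraries and 1 saline-sired library that is assumed to vary like the other group. Since the libraries left out were the highest 2 for Neat1, the estimate had to become less negative. The part of choroid plexus markers in the values of Neat1 was not tested.

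Malat1 and Neat1 did not share a profile across the libraries although they are neighbours. Their log2 ratio, Malat1 over Neat1, was 4.71, 3.99 and 3.30 in methylphenidate-sired libraries 2, 4 and 6, against 3.53, 3.37 and 4.51 in saline-sired libraries 3, 4 and 5. It was high in library 2 of the methylphenidate-sired and library 5 of the saline-sired offspring, and the groups overlapped. Those 2 libraries were also the most alike of any pair over all tested genes, with a chi-square of 8.4 per gene between their counts, where the other 14 pairs had 13.6 to 34.7. Frmd8, a coding gene 5494 bases from Neat1, had 17.1, 16.7 and 17.7 CPM in methylphenidate-sired libraries, against 22.0, 27.1 and 16.1 CPM in saline-sired libraries 3, 4 and 5. As for Neat1, saline-sired libraries 3 and 4 were highest for Frmd8 and saline-sired library 5 was not. Frmd8 was at -0.34 (SE 0.17, edgeR adjusted p = 0.596).

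Genes for the proteins of both nuclear bodies gave no call. Of 20 paraspeckle protein genes, 7 had a positive and 13 a negative fold change, with a median of -0.04 on the log2 scale, and 0 passed the test (2 at an unadjusted p under 0.05, both lower in methylphenidate-sired offspring). That is 10.0%, close to the 9.02% of all tested genes, against which the like counts of the lists that follow are also to be read. The lowest p-values were those of Hnrnph3, an RNA-binding protein needed for paraspeckles in human cells, at -0.42 (SE 0.15, edgeR adjusted p = 0.470), and Cpsf7, a subunit of the 3′-end cleavage factor, at -0.17 (SE 0.07, edgeR adjusted p = 0.517). Of 21 genes for nuclear speckle and SR splicing proteins, 6 had a positive and 15 a negative fold change, with a median of -0.05, and 0 passed (2 at an unadjusted p under 0.05). Srrm1 was at -0.18 and Son, the core scaffold of speckles, at -0.17. Over all tested genes the median was -0.01, with 8394 positive and 9480 negative.

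Miat (gene ID 330166) is transcribed from the minus strand of chr5:112213228-112228948. It is known for repeats of ACTAAC, the sequence by which the branch point of yeast introns is recognised and which the splicing factor SF1 binds in Miat RNA. A stretch with 4 of them is shown because the repeat is the feature that sets this RNA apart from the other 8. It is positions 4519 to 4689 of the Miat transcript of 8758 bases in GENCODE, at chr5:112217299-112217469 on the minus strand, with ACTAAC in capitals.
Miat repeat: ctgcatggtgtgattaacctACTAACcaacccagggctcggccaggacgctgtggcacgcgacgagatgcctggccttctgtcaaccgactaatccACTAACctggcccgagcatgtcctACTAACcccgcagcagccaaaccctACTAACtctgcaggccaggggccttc
Searched on the transcript strand, ACTAAC occurred 11 times in Miat. It occurred 4 times in the 20771 bases of Neat1, 1 time each in Snhg11 and Pantr1, and not in the transcripts used for Malat1, Gas5, Rmst, Dlx6os1 and Sox2ot. Of 9539 annotated lncRNA transcripts of 1000 bases or more, 23.98% held it at least 1 time and 5, or 0.0524%, held it 11 times or more. Transcripts of Miat itself were not left out of this count, and those of 8758 and 9163 bases each held it 11 times. A match is a description of the letters and not of binding.

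Miat had 171, 139 and 200.8 CPM in methylphenidate-sired libraries 2, 4 and 6, against 122, 113 and 153 CPM in saline-sired libraries 3, 4 and 5. Methylphenidate-sired libraries 2 and 6 were the highest 2, and methylphenidate-sired library 4 lay below saline-sired library 5. The mean level was 170 ± 31.1 CPM in methylphenidate-sired and 129 ± 21.1 CPM in saline-sired offspring (SD, n = 3 each). Its log2 fold change was 0.40 (SE 0.15, 95% interval 0.06 to 0.74), with an unadjusted p of 0.0271 and an edgeR adjusted p of 0.491. It ranged between 0.26 and 0.55 with any 1 library left out, and was 0.155 without saline-sired libraries 3 and 4.

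Markers of excitatory neurons of the cortex, which borders the striatum, were also higher in the methylphenidate-sired libraries. The 14 genes summed to 2482, 2573 and 2711 CPM in methylphenidate-sired libraries 2, 4 and 6, against 1838, 1750 and 2247 CPM in saline-sired libraries 3, 4 and 5. A single marker, Nrgn, was the largest part of each sum. Nrgn had 1257, 1298 and 1314 CPM in methylphenidate-sired libraries, against 999, 1164 and 1188 CPM in saline-sired libraries. Of the 14, 13 had a positive fold change, with a median of 0.59 on the log2 scale, and 0 passed the test (10 at an unadjusted p under 0.05). Without saline-sired libraries 3 and 4 that median was 0.27. Slc17a7, the vesicular glutamate transporter of cortical neurons, had 540, 570 and 616 CPM in methylphenidate-sired libraries, against 337, 163 and 438 CPM in saline-sired libraries. Saline-sired library 5 was the highest of its group and library 4 the lowest for Slc17a7, for the cortical sum and for Miat. In the methylphenidate-sired group, library 6 was highest for each of them. There library 4 was lowest for Miat, while library 2 was lowest for Slc17a7 and for the cortical sum. Medium spiny neuron markers summed to between 8489 and 9485 CPM in methylphenidate-sired and between 9935 and 10758 CPM in saline-sired libraries. All 14 of them had a negative fold change, with a median of -0.20, and 0 passed (9 at an unadjusted p under 0.05). The part of these markers in the values of Miat was not tested.

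Genes of splicing factors reported to bind Miat (Sf1, Qk, Srsf1 and Celf3) were listed with the other Celf family members, and none was called. Of these 9 genes, 2 had a positive and 7 a negative fold change, with a median of -0.08, and 0 passed the test (0 at an unadjusted p under 0.05). Celf4, a neuronal member of that family, was at 0.21 (SE 0.11, edgeR adjusted p = 0.625) and Celf1 at -0.12 (SE 0.08, edgeR adjusted p = 0.686). Annotated exons of Gm26953, on the opposite strand, share 2260 bases with Miat. Exons of Gm37376 share 453 bases with Malat1, and those of Gm26700 share 1955 with Rmst. These 3 genes have no row of their own in the table, and the sources used here do not state whether strand was kept, so reads from the 2 strands cannot be told apart.

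**Figure D3:**
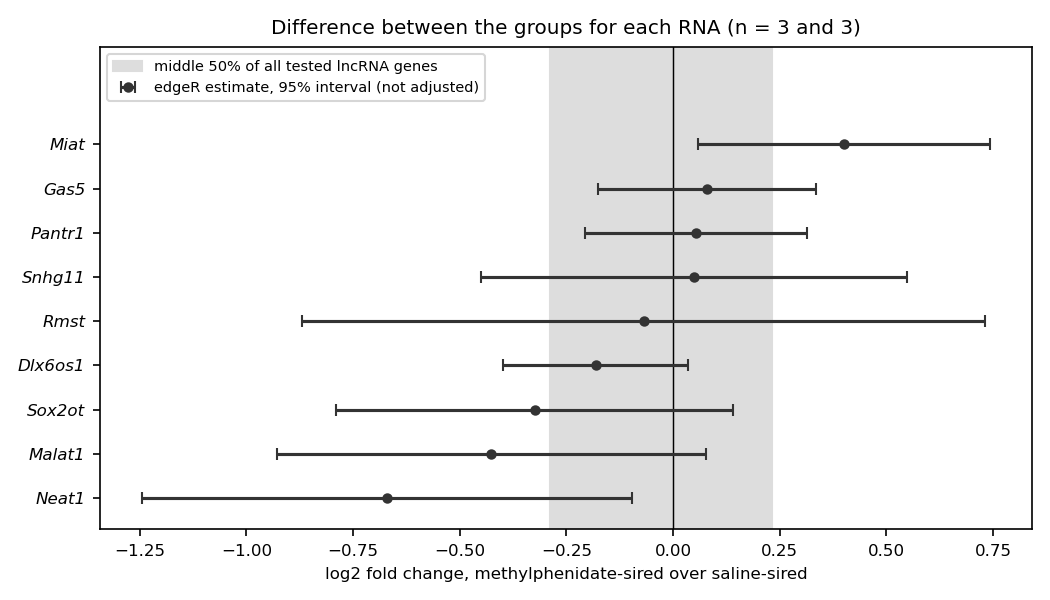
Log2 fold change of each RNA, methylphenidate-sired over saline-sired (points, edgeR), with its 95% interval; the grey band spans the middle 50% of all 1872 tested lncRNA genes. The intervals of Miat (0.06 to 0.74) and Neat1 (-1.24 to -0.10) leave out 0 before adjustment for the number of genes, and the other 7 include it.

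Snhg11 (gene ID 319317, plus strand of chr2:158375713-158386474) is a snoRNA host found mainly in neurons. It had 1272, 1040 and 1388 CPM in methylphenidate-sired libraries 2, 4 and 6, against 784, 1257 and 1535 CPM in saline-sired libraries 3, 4 and 5. The lowest and the highest library were both saline-sired, and the 3 methylphenidate-sired libraries lay between them. The mean level was 1233 ± 177 CPM in methylphenidate-sired and 1192 ± 380 CPM in saline-sired offspring (SD, n = 3 each), a difference of 0.05 on the log2 scale (SE 0.22, 95% interval -0.45 to 0.55, edgeR adjusted p = 0.969). Saline-sired library 3, lowest for Snhg11, had the highest choroid plexus sum, 3155 CPM. Without that library, the log2 fold change of Snhg11 was -0.18, and leaving out its lowest saline-sired value had to lower the estimate. The part of choroid plexus markers in the values of Snhg11 was not tested. Lbp, 42861 bases from Snhg11 and its nearest coding gene on the left, had 68, 51 and 53 counts in methylphenidate-sired libraries, against 1068, 165 and 31 in saline-sired libraries 3, 4 and 5. It was thus highest in the libraries with the highest choroid plexus sums, and its log2 fold change was -2.67 (SE 0.94, unadjusted p = 0.0215, edgeR adjusted p = 0.475). Ralgapb, the nearest on the right, was at -0.02 (SE 0.06, edgeR adjusted p = 0.943). The 2 snoRNA rows inside the Snhg11 span had 45, 39 and 91 counts in methylphenidate-sired libraries, against 41, 55 and 79 in saline-sired libraries. Methylphenidate-sired library 6 and saline-sired library 5 had the most snoRNA counts, and they were also the highest 2 for Snhg11.

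Gas5 (gene ID 14455, plus strand of chr1:161034601-161038539) hosts a row of snoRNAs, and its spliced RNA is known to be held low in growing cells by nonsense-mediated decay. It belongs to the transcripts that start with a C followed by a tract of pyrimidines (5′ TOP), as ribosomal protein mRNAs do, and in human cells it binds the glucocorticoid receptor. The first 50 bases at the 2 annotated RefSeq starts of Gas5 and at that of Miat are shown because they differ in this feature. They come from the RefSeq promoter table of build GRCm38.p6, with an opening C and the 4 or more pyrimidines that follow it in capitals.
Gas5 start at chr1:161034601-161034650, plus strand: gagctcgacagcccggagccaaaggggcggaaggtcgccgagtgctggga
Gas5 start at chr1:161035166-161035215, plus strand: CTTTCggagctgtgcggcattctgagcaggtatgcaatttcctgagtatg
Miat start at chr5:112228899-112228948, minus strand: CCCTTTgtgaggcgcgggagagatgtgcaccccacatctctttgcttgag
The later Gas5 start and the Miat start opened with such a tract, while the earlier Gas5 start and the starts of Malat1, Snhg11 and Dlx6os1 did not; the table matched 5 of the 9 RNAs. Of all 32851 starts in that table, 2.51% opened so, and 3.01% of its 27025 genes had such a start. Among those matched, 3 of 17 snoRNA host genes and 4 of 12 genes of translation with TOP mRNAs had such a start. The latter were listed as TOP mRNAs, so a missing tract at an annotated start does not show that the RNA lacks it.

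Gas5 had 43.1, 49.5 and 49.9 CPM in methylphenidate-sired libraries 2, 4 and 6, against 51.0, 38.4 and 45.4 CPM in saline-sired libraries 3, 4 and 5. Its highest and lowest library were both saline-sired, so the groups overlapped. Its log2 fold change was 0.08 (SE 0.11, 95% interval -0.18 to 0.33, edgeR adjusted p = 0.860), an interval that leaves out changes as large as those of the Neat1 and Miat estimates. The 8 snoRNA rows inside Gas5 summed to 108, 116 and 107 counts in methylphenidate-sired libraries, against 128, 114 and 105 in saline-sired libraries, a sum that also overlapped. Gene counts do not tell a snoRNA from the unspliced RNA of its host.

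Genes of the pathways that act on Gas5 gave no call. Of 14 nonsense-mediated decay factors, 6 had a positive and 8 a negative fold change, with a median of -0.03, and 0 passed the test (2 at an unadjusted p under 0.05). Upf1, the helicase at the centre of that pathway, was at -0.23 (SE 0.08, edgeR adjusted p = 0.487), with 63.6, 71.0 and 59.0 CPM in methylphenidate-sired libraries, against 79.5, 70.9 and 76.4 CPM in saline-sired libraries. Smg5 was at -0.15 (SE 0.06, edgeR adjusted p = 0.517). Of 19 TOP mRNAs, 4 had a positive and 15 a negative fold change, with a median of -0.05, and 0 passed (2 at an unadjusted p under 0.05). Fau, a ubiquitin-like protein fused to a ribosomal protein, was at -0.17 (SE 0.07, edgeR adjusted p = 0.517). Nr3c1, the glucocorticoid receptor, was at 0.03 (SE 0.06, edgeR adjusted p = 0.914). Of 20 snoRNA host genes listed, 19 were tested, 6 with a positive and 13 with a negative fold change and a median of -0.07, and 0 passed (2 at an unadjusted p under 0.05). Snhg20 was at -0.44 (SE 0.16, edgeR adjusted p = 0.491) with 5.84, 4.44 and 6.07 CPM in methylphenidate-sired libraries, against 7.50, 8.13 and 6.61 CPM in saline-sired libraries. Snhg14, the long host of the Prader-Willi region, was at 0.30 (SE 0.13, edgeR adjusted p = 0.550).

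Among the RNAs of developmental loci, Dlx6os1 (gene ID 320038, minus strand of chr6:6820543-6871627) had the smallest SD of log2 CPM within groups, 0.125. Also called Evf2, it is a mouse RNA of inhibitory neurons that regulates Dlx5 and Dlx6 in the embryonic forebrain. It had 35.5, 37.2 and 30.4 CPM in methylphenidate-sired libraries 2, 4 and 6, against 38.2, 37.0 and 41.9 CPM in saline-sired libraries 3, 4 and 5. The groups overlapped only through methylphenidate-sired library 4 and saline-sired library 4, with 37.2 and 37.0 CPM. The log2 fold change was -0.18 (SE 0.09, 95% interval -0.40 to 0.04, edgeR adjusted p = 0.610). Dlx6, which lies inside the Dlx6os1 span on the other strand, had 21.5, 20.6 and 18.4 CPM in methylphenidate-sired libraries, against 21.8, 23.8 and 24.2 CPM in saline-sired libraries. The lowest library of Dlx6 was methylphenidate-sired 6 and the highest saline-sired 5, as for Dlx6os1. Dlx6 was at -0.20 (SE 0.09, edgeR adjusted p = 0.570), and its groups did not overlap. Dlx5, 6174 bases from Dlx6os1, was at -0.13 (SE 0.10, edgeR adjusted p = 0.751), and Gad1, the enzyme of GABA synthesis, at -0.08 (SE 0.10, edgeR adjusted p = 0.832). Medium spiny neurons are inhibitory, and their marker sum was likewise lowest in methylphenidate-sired library 6 (8489 CPM). The order differed elsewhere. The sum was highest in saline-sired library 4 (10758 CPM), the lowest of its group for Dlx6os1. Among methylphenidate-sired libraries the sum was highest in library 2 (9485 CPM), and Dlx6os1 in library 4. The part of these markers in the values of Dlx6os1 was not tested. Interneuron markers, 3 of 14 with a positive and 11 with a negative fold change, had a median of -0.07 and gave no call (4 at an unadjusted p under 0.05).

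Sox2ot (gene ID 320478, plus strand of chr3:34560381-34677993) contains the gene of Sox2, a transcription factor of neural stem cells and glia, within its span. It had 30.8, 30.0 and 37.6 CPM in methylphenidate-sired libraries 2, 4 and 6, against 38.0, 55.3 and 30.1 CPM in saline-sired libraries 3, 4 and 5. A single library, saline-sired 4, stood above the other 5. The log2 fold change was -0.32 (SE 0.20, 95% interval -0.79 to 0.14, edgeR adjusted p = 0.670), and it was -0.05 without saline-sired library 4. That library also had the highest sum of oligodendrocyte markers. Those sums were 7442, 9683 and 10053 CPM in methylphenidate-sired libraries 2, 4 and 6, against 9547, 13612 and 7327 CPM in saline-sired libraries 3, 4 and 5. Saline-sired library 5, with the lowest oligodendrocyte sum, was also among the lowest for Sox2ot. So were methylphenidate-sired libraries 2 and 4, with oligodendrocyte sums of 7442 and 9683 CPM, the latter above that of saline-sired library 3. All 12 oligodendrocyte markers had a negative fold change, with a median of -0.20, and 0 passed the test (0 at an unadjusted p under 0.05). Without saline-sired library 4 that median was 0.0009, and without saline-sired library 5 it was -0.36. The part of these markers in the values of Sox2ot was not tested. Sox2 itself had 31.8, 29.0 and 30.0 CPM in methylphenidate-sired libraries, against 34.1, 37.4 and 28.1 CPM in saline-sired libraries. It was highest in saline-sired library 4 and lowest in saline-sired library 5, and its estimate was -0.13 on the log2 scale (SE 0.11, edgeR adjusted p = 0.747).

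Pantr1 (gene ID 66297, minus strand of chr1:42648200-42694825) and Rmst (gene ID 110333, minus strand of chr10:92081746-92165178) gave estimates near 0. Pantr1 had 19.1, 23.6 and 24.9 CPM in methylphenidate-sired libraries 2, 4 and 6, against 20.6, 23.3 and 21.3 CPM in saline-sired libraries 3, 4 and 5. The saline-sired values all lay within the methylphenidate-sired range, and the log2 fold change was 0.05 (SE 0.11, 95% interval -0.21 to 0.31, edgeR adjusted p = 0.917). Pou3f3, the neuronal transcription factor gene 943 bases from Pantr1, was at 0.00 to 2 decimals (-0.00415, SE 0.07, edgeR adjusted p = 0.991). Rmst had 0.913, 0.563 and 0.828 CPM in methylphenidate-sired libraries, against 0.654, 1.04 and 0.738 CPM in saline-sired libraries. That is between 18 and 33 counts a library, and its estimate of -0.07 on the log2 scale (SE 0.35, edgeR adjusted p = 0.973) had a 95% interval from -0.87 to 0.73. Rmst had the widest interval of the 9. In a list of 14 protein-coding neighbours and partners of the 9 RNAs, which does not hold every nearest gene, 2 had a positive and 12 a negative fold change, with a median of -0.13, and 0 passed (0 at an unadjusted p under 0.05).

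**Figure D4:**
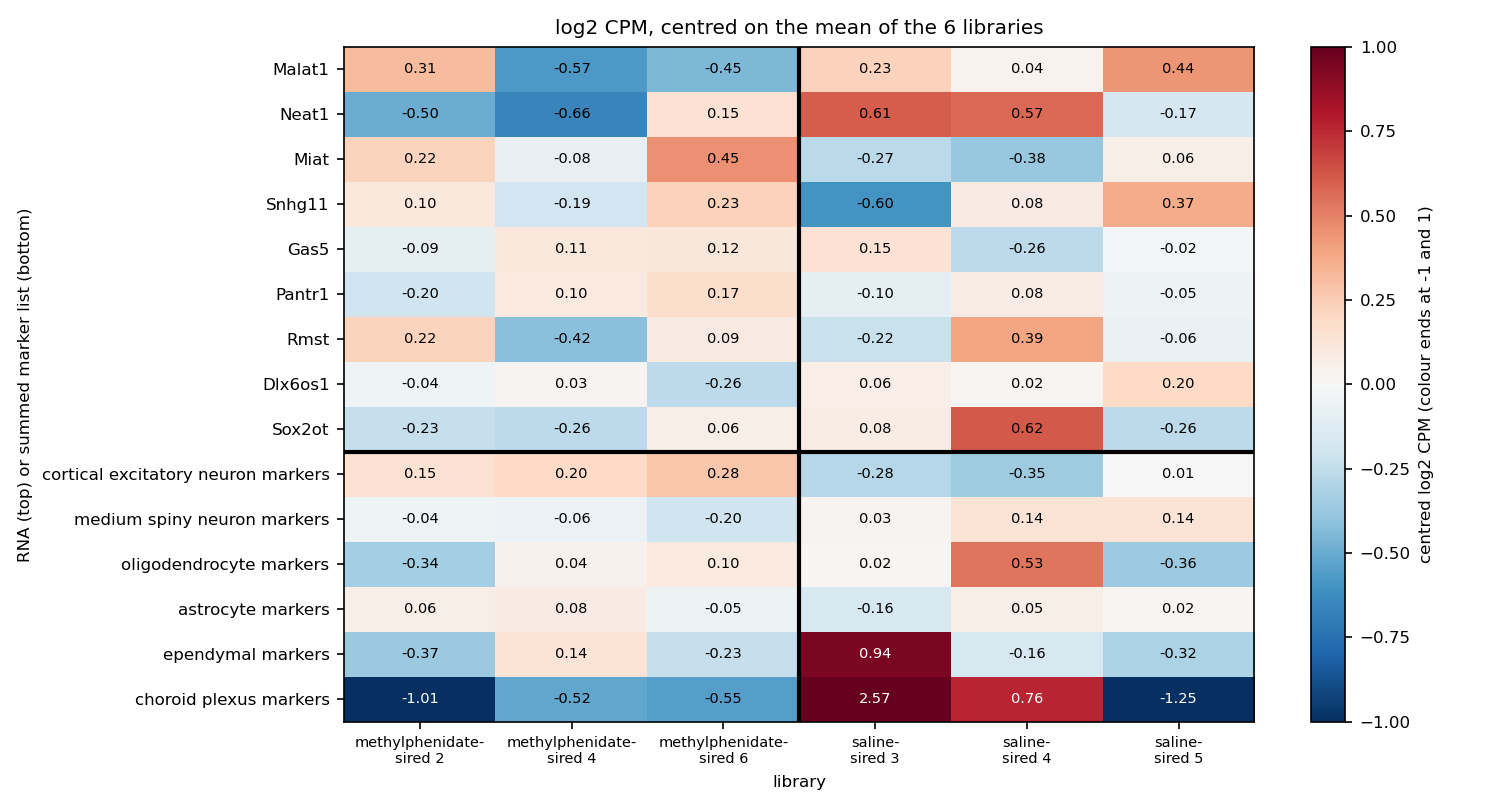
Log2 CPM of each RNA (upper rows) and of the summed counts of 6 marker lists (lower rows) in each library (columns), centred on the mean of the 6 libraries; red is above and blue below that mean. Neat1 and choroid plexus markers are both high in saline-sired libraries 3 and 4, Miat and cortical markers both low there, and Sox2ot and oligodendrocyte markers both peak in saline-sired library 4.

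Ratios between the RNAs within a library do not depend on the scaling of libraries. Of the 36 pairs among the 9 RNAs, 3 had ratios that did not overlap between the groups, or 8.33%, against 14.2% of all pairs of tested genes, and all 3 pairs held Miat. The log2 ratio of Malat1 over Miat was 2.59, 2.00 and 1.60 in methylphenidate-sired libraries 2, 4 and 6, against 3.00, 2.92 and 2.88 in saline-sired libraries 3, 4 and 5. The saline-sired libraries were within 0.121 of each other and all above the methylphenidate-sired ones, which spread over 0.997. The log2 ratio of Neat1 over Miat was -2.12, -1.98 and -1.70 in methylphenidate-sired libraries, against -0.52, -0.45 and -1.63 in saline-sired libraries. The log2 ratio of Miat over Dlx6os1 was 2.26, 1.90 and 2.72 in methylphenidate-sired libraries, against 1.67, 1.61 and 1.87 in saline-sired libraries. The differences between the group means were -0.87, -1.07 and 0.58 on the log2 scale. By a two-sided exact permutation test each of the 3 had p = 0.1, and 0.568 after adjustment over the 36 pairs. That p is the smallest that 3 against 3 libraries allow. Any pair without overlap has it, so it adds nothing to the lack of overlap by which the 3 were picked.

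**Figure D5:**
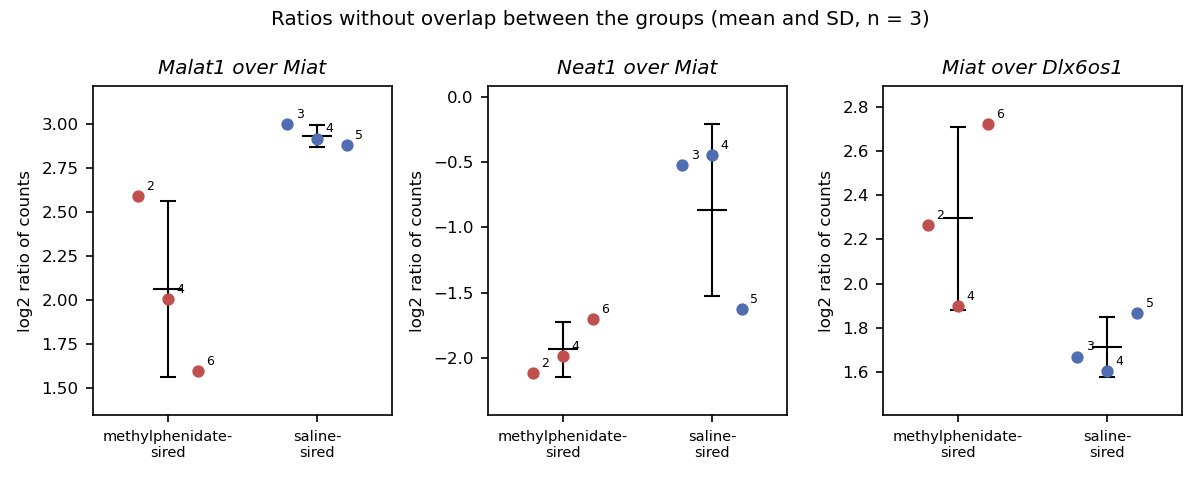
Log2 ratio of CPM for the 3 of 36 pairs whose groups do not overlap (points, with the library number), methylphenidate-sired left and saline-sired right; the bar and whiskers are the mean and SD of 3 libraries, and the axes do not start at 0. Malat1 over Miat lies between 2.88 and 3.00 in saline-sired and between 1.60 and 2.59 in methylphenidate-sired libraries.

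The genes whose centred log2 CPM over the 6 libraries was most like that of each RNA were sought among 13245 protein-coding and lncRNA genes, by the root mean square difference. Those nearest to Malat1 were Gm31251 (0.0530) and Gm32768 (0.0840), which are both annotated as lncRNAs and lie on other chromosomes. Miat was nearest to Faah (0.0667), the hydrolase of the endocannabinoid anandamide, and to Npnt (0.0805), a matrix protein. Snhg11 was nearest to Rasgrf2 (0.0901), which is also among the cortical markers used here, and to LOC115490394. Neat1 was nearest to Spink10 (0.161) and to Acads (0.164), a mitochondrial enzyme of fatty acid breakdown. Gas5 was nearest to Gtf2ird2 (0.0203) and Igsf3, Pantr1 to Megf11 (0.0263) and Plekhf2, and Rmst to Galnt7 (0.0595) and Zfp691. Dlx6os1 was nearest to Foxo1 (0.0259), a transcription factor under insulin control, and to Dffb. Sox2ot was nearest to Anln (0.0656) and Rffl. The measure rests on 6 libraries. It is not scaled by the width of a profile, so its values are not to be compared between RNAs.

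The 9 RNAs were set beside their class. The table held 12570 rows of biotype lncRNA, of which 1872 had enough counts to be tested. Of these, 847 had a positive and 1025 a negative fold change, the median was -0.04 and 0 passed the test, with 53 higher and 69 lower in methylphenidate-sired offspring at an unadjusted p under 0.05. That is 6.52% of them, where all tested genes had 9.02%, 906 higher and 706 lower. The median log2 fold change of the 9 RNAs was -0.07. It had no stable sign, at -0.20 without saline-sired library 3, -0.19 without methylphenidate-sired library 2, 0.03 without methylphenidate-sired library 4, and 0.06 in the absence of saline-sired libraries 3 and 4. The within-group SD of log2 CPM had a median of 0.416 among lncRNA genes, 0.140 among protein-coding genes and 0.330 among the 9. Of 36 other named brain lncRNAs, 22 were tested, 11 with a positive and 11 with a negative fold change and a median of 0.01, and 0 passed (2 at an unadjusted p under 0.05). The lowest p among them was that of Oip5os1, also called Cyrano, a conserved RNA known for triggering decay of miR-7 in mouse. It had 72.7, 71.5 and 70.7 CPM in methylphenidate-sired libraries, against 50.7, 55.2 and 62.1 CPM in saline-sired libraries. The groups did not overlap, and the log2 fold change was 0.36 (SE 0.08, unadjusted p = 0.00207, edgeR adjusted p = 0.398). Six3os1, which lies beside the forebrain gene Six3, was at -0.32 (SE 0.13, edgeR adjusted p = 0.502). Among named lncRNAs of any kind with an average log2 CPM of 1 or more, the lowest p-values were those of Oip5os1, Miat and Snhg14 among the higher, and of Phf2os1 (-0.62), Sp3os (-0.41) and Snhg20 (-0.44) among the lower.

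The other marker lists gave no call either. Choroid plexus markers had a negative fold change for 12 of 12 tested, with a median of -3.02 (10 at an unadjusted p under 0.05), and Ttr, the transthyretin gene that marks this tissue, had 14.7, 61.3 and 33.6 CPM in methylphenidate-sired libraries, against 1905, 306 and 9.88 CPM in saline-sired libraries 3, 4 and 5. Ependymal markers were negative for 10 of 10, with a median of -0.66 (3 at an unadjusted p under 0.05). These medians turned to 0.61 and 0.23 without saline-sired libraries 3 and 4. Astrocyte markers had 6 of 10 positive and a median of 0.01, microglia markers 5 of 10 positive and -0.03, endothelial and mural markers 2 of 10 positive and -0.03, and none was under an unadjusted p of 0.05. Neuroblast and progenitor markers had 4 of 12 positive and a median of -0.07 (1 at an unadjusted p under 0.05). Mbp, of myelin, was at -0.19 (SE 0.22, edgeR adjusted p = 0.823).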

How the data were processed

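The authors' deposited table holds whole-number read counts per gene in 6 columns, which are not normalized; they may be rounded estimates, since no source used here describes the counting step, and this bears most on short and overlapping genes. Another 12 columns of per-sample values were not used. Per the submitters' processing notes, bcl2fastq 2.20.0, Trimmomatic, HISAT2 2.1.0, StringTie 2.1.3b and mm10 were used. Their order, strand handling and the treatment of multiply mapped reads were not stated in those notes. Column names give a group and a number that does not match the sample titles, so no sex term was fitted. Counts were fitted with edgeR 4.0.16 (TMM, filterByExpr, quasi-likelihood, limma 3.58.1) in R 4.3.3, methylphenidate-sired over saline-sired, and CPM are TMM-scaled. No library pair looked like a repeated deposit. Alternatives were other scalings and filters, DESeq2 1.42.0, limma-voom and left-out libraries. Level per kilobase divides CPM by a GENCODE vM21 length. Of each list, the 2 genes of lowest p were named, with the 2 nearest profiles of each RNA, the 3 higher and 3 lower lncRNAs of lowest p at an average log2 CPM of 1 or more, and tissue markers; other neighbours and partners were named for their position or role. Some genes that this rule names are not reported here. The members and lists were chosen with earlier results of these data known. Scripts were tested on simulated data.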

Additional observations from a re-analysis of the deposited data

How the results depend on the processing

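No paired analysis was possible because the column numbers of the groups share a single number, 4, and do not match the numbers in the sample titles. None of the 9 RNAs passed the test in any of the 13 alternatives that gave it an adjusted p, which DESeq2 did not for Rmst, and the smallest adjusted p was 0.153 (Miat, DESeq2). Malat1, Neat1 and Dlx6os1 stayed lower and Miat higher in methylphenidate-sired offspring in all 13. With 1 library left out, log2 fold changes ranged from -0.74 to -0.25 for Malat1, from -0.96 to -0.50 for Neat1, from 0.26 to 0.55 for Miat, from -0.23 to -0.10 for Dlx6os1, from -0.49 to -0.05 for Sox2ot, from -0.18 to 0.29 for Snhg11, from -0.0213 to 0.18 for Gas5, from -0.0209 to 0.18 for Pantr1 and from -0.21 to 0.15 for Rmst. Without saline-sired libraries 3 and 4, Snhg11 was at -0.32, Rmst at 0.0592 and Sox2ot at 0.13, while the medians of choroid plexus markers (0.61) and ependymal markers (0.23) turned positive, that of oligodendrocyte markers was 0.23, and that of cortical markers was 0.27; the cause was not tested. The ependymal median ranged from -0.90 to 0.0294 with 1 library left out. Over the whole table, edgeR called 4 of 17874 genes, and DESeq2 183 of the 12838 to which it gave an adjusted p. At an unadjusted p under 0.05 there were 1612 of 17874 genes with edgeR and 1608 of 26960 with DESeq2. Between 1 and 4 were called with 1 library left out (1 when library 6 of the methylphenidate-sired group was left out), and 0 in the absence of saline-sired libraries 3 and 4, with 958 at an unadjusted p under 0.05. Rmst had too few counts to be tested under a minimum of 1 CPM in 3 libraries. With 3 libraries a group, lncRNAs of wide spread such as Malat1 and Snhg11 are measured less precisely than their depth would allow.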
